A study of Mus musculus with 6 samples.

Results

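Connexins are the proteins of gap junctions, and 7 of their genes, Gjb2, Gjb6, Gjb5, Gja4, Gja1, Gja3 and Gjc1, are described here in germinal vesicle (GV) oocytes with a truncated basonuclin 1 and in wild-type oocytes. They were chosen by the measured FPKM of these libraries, because Gjb2 was nearly absent in WT oocytes and abundant in the mutant, and the other connexins were taken for comparison. Their genotype difference is therefore given as a description, with no test. They make up 7 of the 17577 listed genes and 7 of the 17 listed connexin genes. The oocytes came from 12-week-old C57BL/6 J mice: 3 libraries were from Bnc1tr/tr mice, homozygous for a frameshift deletion in Bnc1 in every cell of the body, and 3 were from wild-type (WT) mice without it. The study's methods say that each cDNA was made from a single oocyte and that oocytes were collected after gonadotropin stimulation, and the labels do not say which mouse gave which library, so the spread between libraries may be in part technical. All values are FPKM, that is fragments per kilobase of transcript scaled to the mapped fragments of a library.

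A connexin protein crosses the membrane several times, and a ring of connexins in the membrane of a cell forms a hemichannel. Hemichannels of neighbouring cells dock to a channel that lets ions and small metabolites pass directly between them. In the ovarian follicle the oocyte contributes channels built of the Gja4 product (connexin Cx37), which carry nutrients and cyclic GMP from the surrounding cumulus cells, whereas cumulus and granulosa cells are coupled to each other mainly by the Gja1 product (Cx43). The beta connexins of Gjb2 (Cx26) and Gjb6 (Cx30) are best known from the supporting cells of the cochlea and from skin, where they can share a channel.

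Gjb2 and Gjb6 lie beside each other on mouse chromosome 14 and Gja4 on chromosome 4. The 250 bases before the RefSeq transcription start are shown for these because these genes give nearly all connexin transcripts of the oocytes, and because Gjb2 and Gjb6 were both higher in the mutant and yet differ in the base composition before their starts. The sequences are from RefSeq, build GRCm38.p6, on the minus strand at chr14:57104703-57104952 for Gjb2, chr14:57133612-57133861 for Gjb6 and chr4:127314040-127314289 for Gja4. Capitals mark the letters GGGCGG (the GC box) and GCCNNNGGC (the core of AP-2 sites) on either strand, which overlap in the second run of capitals of Gjb2.
Gjb2: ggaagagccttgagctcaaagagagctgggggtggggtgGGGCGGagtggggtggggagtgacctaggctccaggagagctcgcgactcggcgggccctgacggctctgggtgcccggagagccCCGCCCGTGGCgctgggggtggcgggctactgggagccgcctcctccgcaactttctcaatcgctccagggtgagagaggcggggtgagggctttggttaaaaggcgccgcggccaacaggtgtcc
Gjb6: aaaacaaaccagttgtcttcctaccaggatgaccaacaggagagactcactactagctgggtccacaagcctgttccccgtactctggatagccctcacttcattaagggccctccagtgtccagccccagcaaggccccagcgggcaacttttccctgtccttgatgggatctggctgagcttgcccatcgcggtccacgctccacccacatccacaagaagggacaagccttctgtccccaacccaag
Gja4: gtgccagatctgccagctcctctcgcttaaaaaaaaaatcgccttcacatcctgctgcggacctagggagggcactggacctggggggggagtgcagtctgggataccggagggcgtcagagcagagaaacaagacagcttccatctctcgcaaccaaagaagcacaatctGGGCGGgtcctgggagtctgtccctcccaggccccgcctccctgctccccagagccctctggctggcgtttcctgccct
The Gjb2 window held 2 GC boxes, which began 211 and 126 bases before the start, and a GCCNNNGGC match 124 bases before it. It was 69.2% GC with 18 CpG dinucleotides, and 89.5% of the 32526 RefSeq mouse windows of this length had a lower GC content. The Gjb6 window was 56.8% GC with 5 CpG, and it held neither the GC box nor the AP-2 letters. It also lacked TATAAA (the TATA box), the letters GGAATG of TEAD sites and the letters TGANTCA of AP-1 sites, as did the Gjb2 and Gja4 windows. The Gja4 window was 61.2% GC with 9 CpG and a GC box 79 bases before the start. Of all windows, 33.0% held the GC box, 13.8% the AP-2 letters, 12.3% the TATA box, 12.6% the TEAD letters and 6.73% the AP-1 letters on either strand, and the median window was 52.4% GC with 6 CpG. Upstream windows were found for 6 of the 7 genes and not for Gjc1.

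Before the results, some facts of the libraries bear on them. The estimated depth was 13.3 to 17.1 M fragments (M, mega) in Bnc1tr/tr and 14.9 to 21.2 M in WT libraries, at which 3 fragments per kilobase of effective transcript length correspond to 0.141 to 0.225 FPKM, and values below that rest on very few fragments (counting error only). Bnc1 itself had 9.04, 6.51 and 5.83 FPKM in Bnc1tr/tr and 13.17, 12.54 and 16.23 FPKM in WT oocytes, a fall of the transcript (log2 fold change -0.89, SE 0.20, limma adjusted p = 0.009), and the deletion itself cannot be read from FPKM. The 10 oocyte markers, such as Zp3 and Gdf9, summed to 13500 to 14700 FPKM in Bnc1tr/tr and 16000 to 17600 FPKM in WT libraries. Of these sums Dppa3 alone gave 5481.33 to 7145.93 FPKM and 5462.32 to 10705.99 FPKM, which overlapped. Of the 10 markers, 2 (Zp2 and Nlrp5) were called lower by limma and 0 higher, next to 7.68% and 24.1% of all tested genes. The other means went either way, with Zp3 lower and Gdf9 and Bmp15 higher in Bnc1tr/tr. Of the 10560 genes that averaged 1 FPKM or more, 31.8% were called changed between genotypes by limma, 24.1% higher and 7.68% lower in Bnc1tr/tr, and their log2 fold changes had a median of 0.15, a shift against which the changes of single genes stand.

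Gjb2 had 113.09, 89.51 and 83.43 FPKM in Bnc1tr/tr oocytes and 0.79, 0.50 and 0.63 FPKM in WT oocytes. All 3 Bnc1tr/tr libraries were far above all 3 WT libraries, and within each genotype the libraries differed little. The means were 95.3 ± 15.7 and 0.640 ± 0.145 FPKM (SD, n = 3 each), a ratio of 149 and a difference of 5.87 on the log2(FPKM + 1) scale. By level, Gjb2 ranked 1137, 1442 and 1489 among the genes of the Bnc1tr/tr libraries and 10159, 10983 and 10331 in WT. From the estimated depth, these values correspond to about 3288, 3287 and 3119 fragments in Bnc1tr/tr and to 26, 18 and 29 in WT, so the WT level was low but above 0.225 FPKM in each library. The transcript had 1 annotated form of 2406 bases, with its coding sequence in 1 exon, and 0% of its 31-base words occurred in other genes, so the values do not draw on reads shared with another connexin.

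Gjb6, the closest neighbour of Gjb2 and its frequent channel partner in other tissues, had 16.1, 29.59 and 21.2 FPKM in Bnc1tr/tr and 0.94, 0.08 and 1.77 FPKM in WT oocytes. The groups did not overlap, and the lowest Bnc1tr/tr library stood well above the highest WT library. Means were 22.3 ± 6.81 and 0.930 ± 0.845 FPKM (SD, n = 3 each), a ratio of 24.0 and a difference of 3.66 in log2(FPKM + 1). Gjb2 and Gjb6 did not follow each other from library to library: among the Bnc1tr/tr libraries Gjb2 was highest in replicate 1, where Gjb6 was lowest, and the ratio of Gjb2 to Gjb6 FPKM was 7.02, 3.03 and 3.94. In WT libraries this ratio was 0.84, 6.25 and 0.356, the highest in replicate 2, which held almost no Gjb6.

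Gjb5, an epidermal connexin gene on chromosome 4, was low in all libraries. It had 2.64, 0.32 and 0.70 FPKM in Bnc1tr/tr and 0.09, 0 and 0 FPKM in WT oocytes. The groups did not overlap, but most of the Bnc1tr/tr mean of 1.22 ± 1.24 FPKM came from replicate 1, and the spread of that group was as large as its mean. The values stood for about 53, 8 and 18 fragments in Bnc1tr/tr and 2, 0 and 0 in WT.

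Gja4, the connexin of the oocyte, was the most abundant connexin in all 6 libraries. It had 211.28, 162.56 and 129.04 FPKM in Bnc1tr/tr and 274.22, 176.16 and 117.95 FPKM in WT oocytes. The groups overlapped fully, with the highest and the lowest value both in WT. Means were 168 ± 41.4 and 189 ± 79.0 FPKM (SD, n = 3 each), a difference of -0.12 in log2(FPKM + 1), well within the spread of either group. Its rank was 586 to 1043 in Bnc1tr/tr and 473 to 1095 in WT libraries. The sign of this small difference was not fixed, since it was -0.42 without WT replicate 3 and 0.19 without WT replicate 1.

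Gja1, the connexin of cumulus and granulosa cells, was low in these oocytes. It had 0.63, 0.68 and 0.20 FPKM in Bnc1tr/tr and 2.77, 1.14 and 0.06 FPKM in WT oocytes, and the WT libraries spanned the whole Bnc1tr/tr range. Means were 0.503 ± 0.264 and 1.32 ± 1.36 FPKM (SD, n = 3 each), a difference of -0.46 in log2(FPKM + 1). Granulosa genes did not all follow it among the WT libraries. Inha, the inhibin alpha subunit, had 6.78, 3.45 and 0.04 FPKM, the order of Gja1, which Cyp11a1 and Lhcgr also had. Hsd17b1, which makes oestradiol, had 0.93, 1.43 and 0 FPKM. It was highest in WT replicate 2, as were Cyp19a1 (23.45, 28.98 and 17.41 FPKM), Fshr, Star and Amhr2, whereas Inhba and Npr2 were lowest there. Gja1, Inha and Hsd17b1 were at or near 0 in WT replicate 3. In Bnc1tr/tr, Inha had 0.18, 1.81 and 0.09 FPKM. Of the 12 granulosa or cumulus markers 11 were listed and summed to 40.5 to 59.3 FPKM in Bnc1tr/tr and 18.5 to 36.8 FPKM in WT, most of it Cyp19a1, the aromatase, while the defining markers Foxl2 and Amhr2 were at 0 in every Bnc1tr/tr library and had 0.03, 0 and 0 and 0, 0.21 and 0 FPKM in the WT libraries. Of the 4 tested markers, Fshr and Cyp11a1 were called higher in Bnc1tr/tr (limma adjusted p = 1.1e-04 and 0.0013), next to 24.1% of all tested genes. Cyp19a1 and Inha were not called, and the list is too short to read its share as a result. Fshr reached the mean of 1 FPKM only through the Bnc1tr/tr libraries. The part of adhering follicle cells in the Gja1 values was not tested. A different number of such cells and a different amount of RNA per cell cannot be told apart in these libraries.

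Gja3, best known from the lens, had 0.77, 0.70 and 0.76 FPKM in Bnc1tr/tr and 0.66, 0.78 and 0.53 FPKM in WT oocytes. These values overlapped and were the most even of the 7 genes, although Gja3 lies next to Gjb2 on the chromosome. Gjc1 (Cx45), which couples early heart and smooth muscle cells, had 0.90, 0.74 and 0.77 FPKM in Bnc1tr/tr and 0, 0.17 and 0.22 FPKM in WT oocytes. Its groups did not overlap, with means of 0.803 ± 0.0850 and 0.130 ± 0.115 FPKM (SD, n = 3 each) and a ratio of 6.18, but the WT values were at or near 0.

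Of the 7 genes, 3 (Gjb2, Gjb6 and Gja4) reached the mean of 1 FPKM needed for the test of all genes, and Gjb2 and Gjb6 reached it only through the Bnc1tr/tr libraries. The remaining 4 were below it. Gjb2 and Gjb6 were called higher against 31.8% of tested genes called in either direction and 24.1% called higher, and 0 members were called lower against 7.68%. Groups did not overlap, with Bnc1tr/tr higher, for 4 of the 7 (Gjb2, Gjb6, Gjb5 and Gjc1), against 28.2% of the 17574 genes above 0 in any library. Nothing is read from these counts, because the genes were selected on this contrast.

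**Figure D1:**
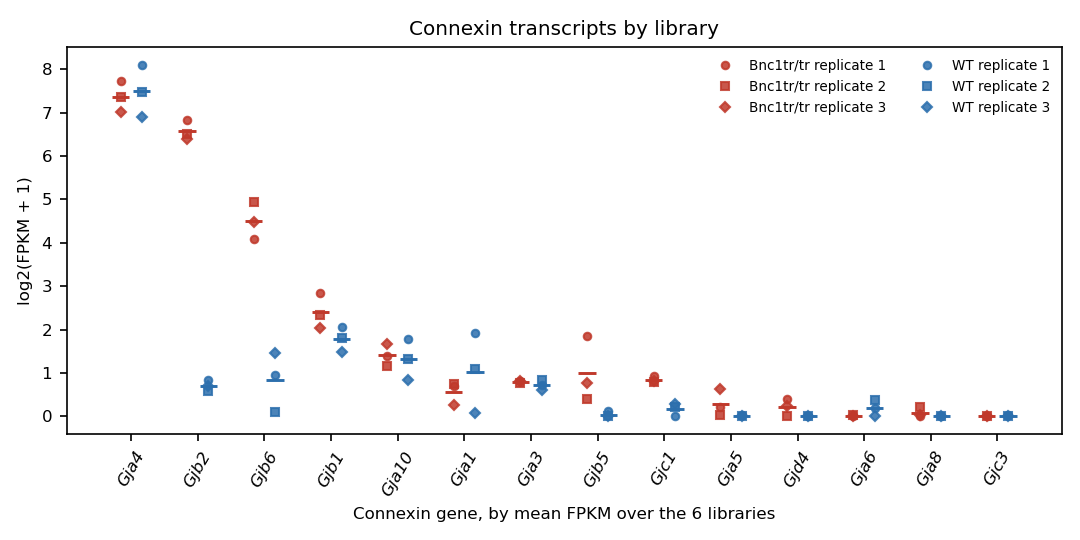
Level of 14 listed connexin genes as log2(FPKM + 1) in the 3 Bnc1tr/tr (red) and 3 WT (blue) libraries, ordered by mean FPKM. Points are libraries, with the symbol giving the replicate, and bars are group means. Gja4 overlaps between genotypes, whereas Gjb2 and Gjb6 stand apart and most other connexins lie below 1 FPKM, which is 1 on this axis.

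In order of mean FPKM, WT oocytes had Gja4 (189), Gja1 (1.32), Gjb6 (0.930), Gja3 (0.657), Gjb2 (0.640), Gjc1 (0.130) and Gjb5 (0.0300) among the 7 genes. The ranges were separate from Gja4 to Gja1 and from Gjb2 to Gjc1, whereas Gja1, Gjb6, Gja3 and Gjb2 overlapped each other, as did Gjc1 and Gjb5. Gja1 and Gjb6 also overlapped Gjc1 and Gjb5, so the order of the low genes is not firm. In Bnc1tr/tr oocytes the order was Gja4 (168), Gjb2 (95.3), Gjb6 (22.3), Gjb5 (1.22), Gjc1 (0.803), Gja3 (0.743) and Gja1 (0.503). There Gja4, Gjb2, Gjb6 and Gjb5 held separate ranges. Gjb5 overlapped Gjc1, Gja3 and Gja1, and Gjc1 overlapped Gja3. Gja3 and Gja1 were apart by only 0.70 against 0.68 FPKM in the nearest libraries. Gjb2 thus stood just below Gja3 in WT and just below Gja4 in the mutant.

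The makeup of the connexin transcripts differed accordingly. Gja4 was 96.1, 96.2 and 95.3% of the summed FPKM of all 17 connexins in WT and 59.4, 55.9 and 52.8% in Bnc1tr/tr oocytes. Gjb2 was 31.8, 30.8 and 34.1% in Bnc1tr/tr and 0.277, 0.273 and 0.509% in WT, and Gjb6 was 7.80 ± 2.93% and 0.601 ± 0.732% (SD, n = 3 each). A WT oocyte held 347, 352 and 187 times as much Gja4 as Gjb2 per length, and a Bnc1tr/tr oocyte 1.87, 1.82 and 1.55 times. The Gja4 share differed between genotypes although the Gja4 level overlapped, since a share depends on the other connexins too. The sum of all 17 was 355, 291 and 244 FPKM in Bnc1tr/tr and 285, 183 and 124 FPKM in WT oocytes, which overlapped, and without Gjb2 it was 201 ± 40.8 and 197 ± 81.6 FPKM (SD, n = 3 each). Without Gja4 it was 129 ± 14.5 against 7.96 ± 2.79 FPKM.

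**Figure D2:**
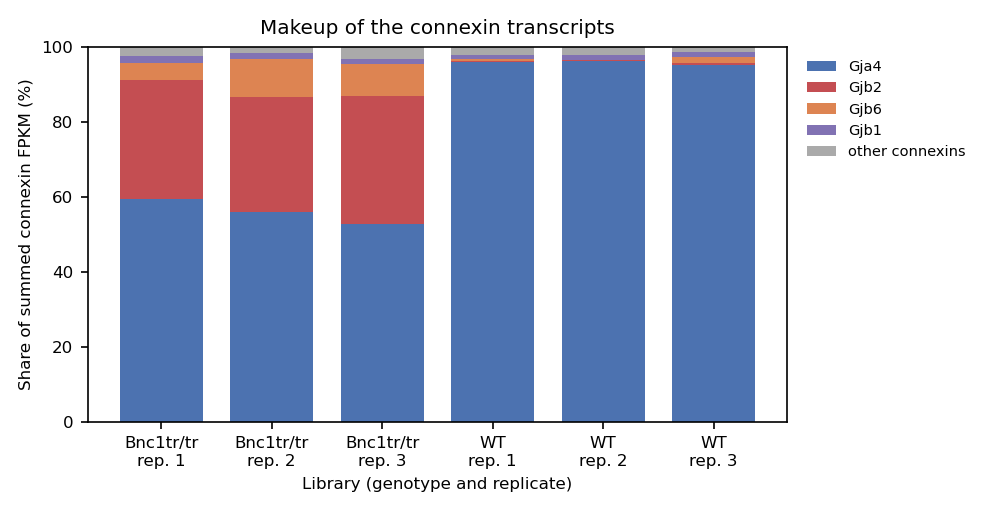
Share of the summed FPKM of the 17 listed connexins, in percent, taken by Gja4, Gjb2, Gjb6, Gjb1 and all others in each library. Gja4 takes 95.3 to 96.2% of each WT bar and 52.8 to 59.4% of each Bnc1tr/tr bar, where Gjb2 takes 30.8 to 34.1%.

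None of the 10 other listed connexins reached the level that Gjb2 had in the mutant. Gjb1, a liver and myelin connexin, had 6.20, 4.03 and 3.09 FPKM in Bnc1tr/tr and 3.20, 2.52 and 1.81 FPKM in WT oocytes. The groups overlapped slightly and the difference did not pass the test (log2 fold change 0.61, SE 0.25, limma adjusted p = 0.089). Gja10, a retinal connexin, had 1.62, 1.23 and 2.19 FPKM in Bnc1tr/tr and 2.47, 1.49 and 0.78 FPKM in WT, with no difference past the test (log2 fold change 0.09, SE 0.26, limma adjusted p = 0.82). The other 8 were below the mean of 1 FPKM. Connexins with any value above 0 numbered 14 in each Bnc1tr/tr library and 11, 9 and 8 in the WT libraries. Of all 17577 listed genes, 15627, 15736 and 15258 were above 0 in the Bnc1tr/tr libraries and 14565, 14576 and 13896 in WT. More genes were thus detected in Bnc1tr/tr in general, and nothing about connexins is read from their count. The related pannexins, which form channels of unpaired membranes, did not pass the test either: Panx1 had 13.4 ± 1.24 and 10.8 ± 2.92 FPKM (limma adjusted p = 0.29) and Panx2 3.59 ± 1.83 and 2.87 ± 1.58 FPKM (limma adjusted p = 0.68) in Bnc1tr/tr and WT (SD, n = 3 each).

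The markers of other cell types that these libraries could hold are given beside the beta connexins. Of the 8 markers of the ovarian surface or simple epithelium, 7 were listed and summed to 36.5, 14.7 and 11.4 FPKM in Bnc1tr/tr and 3.22, 1.64 and 1.17 FPKM in WT oocytes. The keratin gene Krt8 had 22.79, 6.05 and 6.17 FPKM in Bnc1tr/tr and 1.05, 0.27 and 0.09 FPKM in WT, and Krt8, Krt18 and Upk3b were called higher of 4 tested, next to 24.1% of all tested genes, while Epcam was not called. Among the Bnc1tr/tr libraries the sum of this list and Gjb2 had the same order, highest in replicate 1 and lowest in replicate 3, and Gjb6 did not have it. That order is not particular to this list, since Gja4 of the oocyte had it too (211.28, 162.56 and 129.04 FPKM). Within the list Krt18, Upk3b and Lgals7 had it, and Krt7, Krt8, Epcam and Muc16 did not. Of the 9 stratified epithelium markers 6 were listed, with a sum of 28.5 to 36.8 FPKM in Bnc1tr/tr and 20.2 to 23.5 FPKM in WT; Krt1 and Pkp1 were at or near 0 throughout and Dsg1a was called higher of 3 tested, while Krt10 and Trp63 were not called. The 6 immune markers summed to 18.9, 52.0 and 1.86 FPKM in Bnc1tr/tr and 1.39 to 2.94 FPKM in WT. Of 2 tested 0 were called, and Lyz2 alone had 5.81, 47.97 and 0 FPKM in Bnc1tr/tr. The theca or stroma markers (4 of 6 listed) summed to 5.35 to 7.53 and 1.4 to 2.09 FPKM, and the 4 endothelial markers to 5.38 to 8.10 and 10.1 to 11.7 FPKM, in Bnc1tr/tr and WT. Most of the theca or stroma sum was Dcn, the 1 tested gene of that list, which was called higher. Among the endothelial markers Pecam1 was called lower of 2 tested, next to 7.68% of all tested genes, and Tek was not called. Kdr, which was not tested, went the other way without overlap (0.903 and 0.0967 FPKM). Krt8, Krt18, Upk3b, Dsg1a and Lyz2 reached the mean of 1 FPKM only through the Bnc1tr/tr libraries. The part of RNA of other cells in the Gjb2 and Gjb6 values was not tested.

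Connexin genes lie in clusters, and the values along them were compared with those of the surrounding genes. In GRCm38, Gja3 (57034460 to 57058100), Gjb2 (57098600 to 57104702) and Gjb6 (57123303 to 57133611) follow each other on chromosome 14, all on the minus strand, with gaps of 40.6 kb and 18.6 kb by the RefSeq coordinates, which differ slightly from these GENCODE ones. Gja4 (127311421 to 127314039) and Gjb5 (127354809 to 127358181) lie on the minus strand of chromosome 4 with 40.8 kb between them. Gja1 is at 56377330 to 56402513 on chromosome 10, plus strand, and Gjc1 at 102799579 to 102819700 on chromosome 11, minus strand. No annotated gene overlapped any of the 7.

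On chromosome 14 the large values were those of Gjb2 and Gjb6, and the genes on either side were not alike. Gja3, on one side, differed by 0.08 in log2(FPKM + 1). Cryl1, a crystallin-like dehydrogenase gene 141 kb beyond Gjb6, had 89.24, 65.56 and 83.5 FPKM in Bnc1tr/tr and 137.32, 116.71 and 76.08 FPKM in WT, which overlapped (log2 fold change -0.44, limma adjusted p = 0.20). Of the 10 neighbours there that are not connexins 7 were tested. Next to 24.1% of all tested genes called higher and 7.68% called lower, 2 of these neighbours were called, both higher. These were Zmym5, a zinc finger gene (3.12 ± 0.701 and 1.5 ± 0.349 FPKM, log2 fold change 0.71, limma adjusted p = 0.020), and Xpo4, a nuclear transport receptor (4.75 ± 0.620 and 2.43 ± 0.429 FPKM, 0.75, limma adjusted p = 0.012), each in Bnc1tr/tr and WT (SD, n = 3 each). Both calls were lost with quantile normalization (limma adjusted p = 0.28 and 0.16).

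On chromosome 4 the abundant connexin was not the one that stood apart. Gja4, abundant in both genotypes, overlapped, while the low Gjb5 was above WT in all Bnc1tr/tr libraries. Of 4 tested neighbours 2 were called, Zmym6 (17.13, 17.89 and 11.34 against 1.69, 1.44 and 2.2 FPKM, log2 fold change 2.55, limma adjusted p = 4.1e-05) and Tmem35b (286 ± 30.8 and 159 ± 9.63 FPKM, 0.84, limma adjusted p = 0.0048), 187 and 182 kb from Gja4. Around Gja1 on chromosome 10, 2 of 7 were called, which lie 1390 and 2300 kb from it. Fabp7, a fatty acid binding protein gene, rose (34.4 ± 14 and 9.34 ± 1.65 FPKM, log2 fold change 1.71, limma adjusted p = 0.0024) and Man1a, a mannosidase gene, fell (0.75 ± 0.173 and 4.74 ± 0.843 FPKM, -1.71, limma adjusted p = 1.6e-04). Man1a reached the mean of 1 FPKM only through the WT libraries. Around Gjc1 on chromosome 11, 0 of 3 tested neighbours were called. In all, 6 of 21 tested neighbours (28.6%) were called, next to 31.8% of all tested genes.

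**Figure D3:**
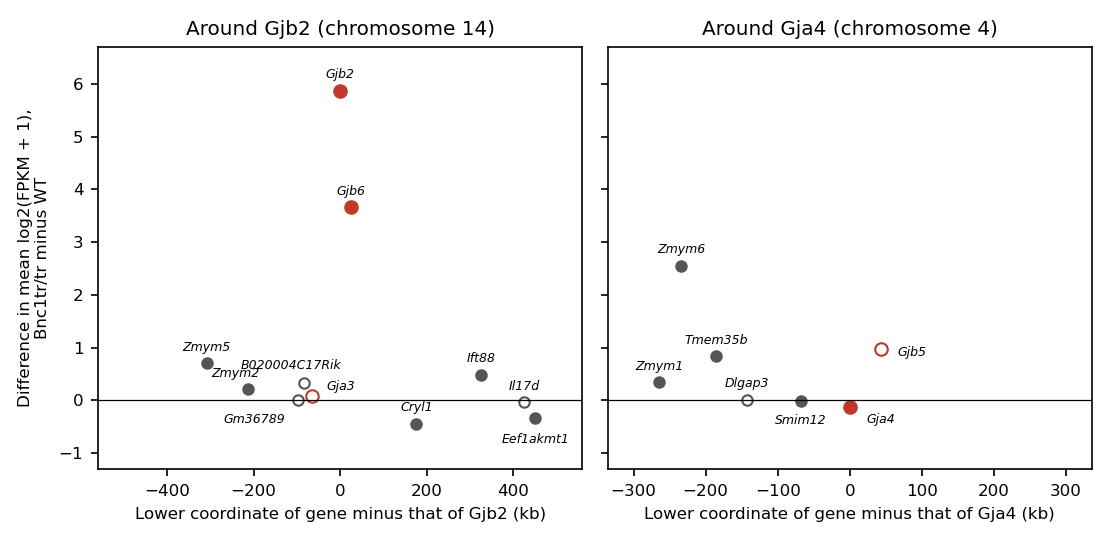
Difference in mean log2(FPKM + 1), Bnc1tr/tr minus WT, of Gjb2 (left) and Gja4 (right) and listed genes near them, against the distance between the lower coordinates of the genes in kb. Red points are connexins and grey points other genes, filled where the mean was at least 1 FPKM; Gjb2 at 5.87 and Gjb6 at 3.66 stand above their neighbours, while Gja4 lies at -0.12.

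Gap junctions need other proteins to reach and stay in the membrane. Of 29 connexin partner genes, 27 were listed and 23 tested, of which 8 rose, 1 fell and 14 did not pass the test, which is 39.1% called next to 31.8% of all tested genes, with a median log2 fold change of 0.28 next to 0.15 for all. The scaffold and trafficking genes accounted for most of it, with 6 higher and 1 lower of 9 tested (77.8%), a list too short to read its share as a result. Cdh1, the E-cadherin of cell adhesion, had 29.71, 27.7 and 27.68 FPKM in Bnc1tr/tr and 11.36, 12.06 and 11.78 FPKM in WT oocytes (log2 fold change 1.21, SE 0.15, limma adjusted p = 4.1e-04). Cdh2, the N-cadherin, had 2.42, 2.99 and 2.86 FPKM in Bnc1tr/tr and 8.36, 7.17 and 10.4 FPKM in WT (-1.35, SE 0.18, limma adjusted p = 6.2e-04). The 2 cadherins thus moved in opposite directions, and the ratio of Cdh1 to Cdh2 FPKM was 12.3, 9.26 and 9.68 in Bnc1tr/tr and 1.36, 1.68 and 1.13 in WT oocytes.

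Ezr, the ezrin that links the membrane to actin and anchors protein kinase A beside Gja1 product channels in other cells, had 5.77, 5.79 and 6.32 FPKM in Bnc1tr/tr and 0.73, 1.05 and 0.53 FPKM in WT (log2 fold change 1.98, SE 0.17, limma adjusted p = 5.0e-05). Tjp1, the tight junction scaffold that binds connexin tails, overlapped between genotypes (3.34 ± 0.428 in Bnc1tr/tr and 3.6 ± 1.38 FPKM in WT, SD, n = 3 each, limma adjusted p = 0.9). Dbn1, the actin binding drebrin, rose from 0.550 ± 0.135 to 1.78 ± 0.115 FPKM (limma adjusted p = 0.0037), and this call was lost with quantile normalization (log2 fold change 0.41, limma adjusted p = 0.089). Ctnnd1, the cadherin-binding p120 catenin, and Cnst, the connexin transport receptor consortin, were called at log2 fold changes of 0.82 and 0.51 (limma adjusted p = 0.022 and 0.035). Both calls were lost under median-ratio scaling (0.64 and 0.30, limma adjusted p = 0.07 and 0.2) and without Bnc1tr/tr replicate 1 or 3 or WT replicate 1 or 2 (limma adjusted p = 0.061 to 0.13). Ctnnb1, the beta-catenin, did not pass the test (0.39, limma adjusted p = 0.12). Of these genes, Ezr and Dbn1 reached the mean of 1 FPKM only through the Bnc1tr/tr libraries.

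Of the kinases that phosphorylate connexins, 1 of 8 tested was called (12.5%), next to 31.8% of all tested genes. That gene was Mapk7, with 16.03, 11.57 and 5.94 FPKM in Bnc1tr/tr and 1.21, 1.24 and 0.43 FPKM in WT oocytes (log2 fold change 2.57, SE 0.33, limma adjusted p = 4.6e-04). Its product ERK5 closes Gja1 product channels in other cells. Mapk7 too reached the mean of 1 FPKM only through the Bnc1tr/tr libraries. Among genes of connexin turnover 1 of 6 tested was called (16.7%). It was the endosomal sorting gene Hgs (21.7 ± 7.35 and 10.6 ± 3.70 FPKM, SD, n = 3 each, 0.96, limma adjusted p = 0.034), a call that was lost under 8 of 12 alternatives. These lists too are too short to read their shares as results.

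**Figure D4:**
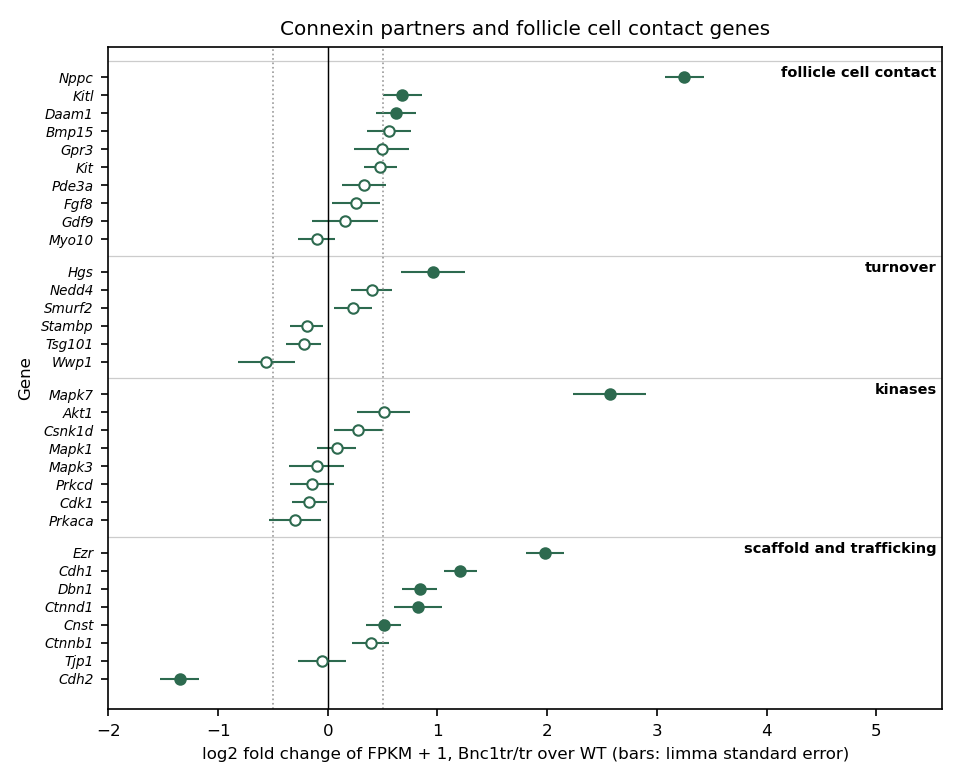
log2 fold change of FPKM + 1, Bnc1tr/tr over WT, for 32 tested partner and follicle cell contact genes, with limma standard errors as bars and dotted lines at 0.5 in either direction. Filled points were called changed, and Nppc at 3.25, Mapk7 at 2.57 and Ezr at 1.98 lie farthest above 0 and Cdh2 at -1.35 farthest below.

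Of 12 genes by which oocyte and follicle cells signal to or touch each other, 10 were tested and 3 rose, 30.0% next to 31.8% of all tested genes. Nppc, the C-type natriuretic peptide by which granulosa cells raise the cyclic GMP that reaches the oocyte through gap junctions, had 11.02, 7.31 and 8.27 FPKM in Bnc1tr/tr and 0.08, 0 and 0 FPKM in WT oocytes (log2 fold change 3.25, SE 0.18, limma adjusted p = 4.6e-06). Nppc reached the mean of 1 FPKM only through the Bnc1tr/tr libraries. Its receptor gene Npr2, a cumulus gene, was at or below 0.18 FPKM in every library. Kitl, the Kit ligand of granulosa cells, rose from 1.14 ± 0.0321 to 2.46 ± 0.590 FPKM (log2 fold change 0.68, limma adjusted p = 0.018), and Daam1, a formin of cell protrusions, from 23.4 ± 3.73 to 36.3 ± 2.86 FPKM (0.62, limma adjusted p = 0.026; SD, n = 3 each). The call of Kitl was lost with quantile normalization (limma adjusted p = 0.31), and that of Daam1 with quantile normalization and with median-ratio scaling (limma adjusted p = 0.054 and 0.09). The oocyte's own signals to cumulus cells were not called, with Gdf9 at 2180 ± 533 and 2010 ± 719 FPKM and Bmp15 at 1240 ± 149 and 853 ± 186 FPKM in Bnc1tr/tr and WT (SD, n = 3 each, limma adjusted p = 0.72 and 0.063).

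Genes with a profile like that of a connexin were ranked by the mean absolute difference in log2(FPKM + 1) over the 6 libraries. Nearest to Gjb2 were 4930486L24Rik (0.30), Tktl1 (0.31), Slc43a1 (0.39), Sprr1a (0.41) and Gchfr (0.50). Sprr1a, a cornified envelope gene of squamous epithelium, had 107.94, 122.32 and 54.86 FPKM in Bnc1tr/tr and 0, 0.21 and 0.89 FPKM in WT, and Tktl1, a transketolase-like gene, had 80.84, 76.88 and 77.07 FPKM against 0.12, 0.67 and 0.39 FPKM. Nearest to Gja4 were Arrdc1 (0.14), Rnf8 (0.16), Noc4l (0.17), Cdca5 (0.18) and Psmd8 (0.19), which were abundant in both genotypes and were, like Gja4, lowest in replicate 3 among the WT libraries. Nearest to Gja1 were Plaur (0.12), Hsd3b6 (0.20), Adssl1 (0.21), Gm5916 (0.21) and Stard3 (0.22), all low genes for which a small distance takes little. The list is a description of likeness over 6 libraries, and Gjb2 and its nearest genes share the same libraries.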

How the data were processed

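Per the labels, 6 GV oocyte libraries were sequenced, 3 per genotype. The authors deposited FPKM per gene, rounded to 2 decimals, for 17577 genes in each library. The submitters' processing notes name HISAT2 2.0.4, Bowtie2 2.2.5, RSEM 1.2.12 and the build GRCm38.p6. Because FPKM values share the total of their library, a rise of abundant transcripts lowers the others. The cDNA was amplified and carried no molecular identifiers, so fragments are not independent molecules. Gene symbols that a spreadsheet had turned into dates (25) were restored through the NCBI Gene ID.

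The genotype contrast was fitted, unpaired, by limma 3.58.1 (R 4.3.3) to log2(FPKM + 1) of the 10560 genes that averaged 1 FPKM or more. Genes that reached this mean through 1 genotype alone entered the fit because of the difference that was then tested. They are counted in the list shares and in the share of all tested genes. A gene was called changed below 0.05 in Benjamini-Hochberg adjusted p, provided that its log2 fold change passed 0.5 in either direction. The fold change is on the log2(FPKM + 1) scale and understates the change of low genes. The method was tested on simulated data. The 7 connexins, the partner, contact and marker lists and the rules for the named genes (every connexin and pannexin listed, changed partner and contact genes, 5 listed neighbours on either side of each member, and the 5 nearest profiles) were chosen with earlier results of these data known; Tjp1, Ctnnb1, Npr2, Gdf9, Bmp15, Cryl1 and the marker genes named were added as unchanged or defining members. Some genes of these lists are counted but not reported here by name. Neighbours were taken in RefSeq order, gene structure from GENCODE M21 (GRCm38), and upstream windows from RefSeq. Depth was estimated from the step between low FPKM values, which equals the value of 1 fragment. Figures were drawn with matplotlib 3.10.9 in Python 3.11.15.

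Replicate numbers are shared by the groups, but same-numbered libraries deviated from their groups with correlations of 0.28, -0.03 and 0.12, so the numbers were not taken to pair the libraries. The alternatives were 0.1 in place of 1 as pseudocount, all genes without the mean filter, upper-quartile, median-ratio and quantile scaling, the replicate number as a block, and leaving out each library.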

Additional observations from a re-analysis of the deposited data

How the results depend on the processing

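The log2 difference of Gjb2 was 5.64 to 7.02 and that of Gjb6 3.29 to 4.95 over the 12 alternatives, with a pseudocount of 0.1 giving 7.02 and 4.95 and quantile normalization 5.64 for Gjb2. Changed genes numbered 3358 (2547 higher, 811 lower) and 2390 to 3597 without single libraries (1867 to 2560 higher, 416 to 1037 lower). Under median-ratio scaling 1954 were higher and 1534 lower, and under quantile normalization 1670 and 1811, with medians of all genes of -0.05 and -0.09. Partner genes called higher (8) numbered 5 with median-ratio scaling and 4 after quantile normalization, and to 5 to 8 without single libraries. Those called lower (1) were 4 under quantile normalization and 1 to 2 without single libraries. Contact genes called (3) were 1 to 5 without single libraries.

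The calls of Cdh1, Cdh2, Ezr, Mapk7, Nppc, Fabp7, Man1a, Tmem35b and Zmym6 held under all 12 alternatives (highest limma adjusted p 0.028). Of these genes, Ezr, Mapk7, Nppc and Man1a reached the mean of 1 FPKM through 1 genotype only. Other calls were lost under some alternatives: Cnst (limma adjusted p up to 0.2), Ctnnd1 (0.17), Hgs (0.12), Daam1 (0.09), Kitl (0.31), Zmym5 (0.28), Xpo4 (0.16) and Dbn1 (0.089). Single libraries ended calls too. Without Bnc1tr/tr replicate 1 they were Cnst (0.097), Ctnnd1 (0.077), Hgs (0.12), Kitl (0.063), Daam1 (0.062) and Zmym5 (0.073), without Bnc1tr/tr replicate 2 Cnst (0.093), Hgs (0.093) and Daam1 (0.055), and without Bnc1tr/tr replicate 3 Cnst (0.061), Ctnnd1 (0.063), Daam1 (0.089) and Zmym5 (0.051). Without WT replicate 1 they were Cnst (0.096), Ctnnd1 (0.063) and Zmym5 (0.063), without WT replicate 2 Cnst (0.13), Ctnnd1 (0.068), Hgs (0.1), Kitl (0.066) and Daam1 (0.068), and without WT replicate 3 Hgs (0.079) and Daam1 (0.05). The small fold change of Gja10 turned to -0.033 with median ratios and to -0.34 with quantiles, and spanned -0.15 to 0.33 without single libraries. That of Panx2 turned to -0.17 under quantile normalization and spanned -0.12 to 0.63 without single libraries. With the replicate block, 3733 genes were changed (2781 higher, 952 lower), 10 partner genes were called, and Gjb1 passed the test (0.61, limma adjusted p = 0.024). The causes of these changes were not tested. Fold changes below about 1 FPKM, as for Gjb5, Gjc1, Gja1 and Gja3, rest on few fragments.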
